A study of Mus musculus with 12 samples.

Results

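A set of 10 genes that define or serve the osteoclast was followed through 4 sorted myeloid populations of mouse bone marrow. They were Tnfrsf11a, Ctsk, Acp5, Nfatc1, Dcstamp, Ocstamp, Oscar, Calcr, Atp6v0d2 and Atp6v0a3, 10 of the 56953 genes in the deposited tables. The list was taken by name and matched to Ensembl identifiers: 9 matched by their mouse symbol, and Atp6v0a3 matched as a synonym of Tcirg1, the name used below. Another 85 genes of the same pathway were listed beside them.

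The 12 libraries were made from marrow of C57BL/6J mice, all female and 8 weeks old, and form 4 groups of 3 replicates. The first 2 groups were F4/80hi macrophages, split by a reporter into eYFP+ cells of embryonic origin and eYFP- cells derived from adult hematopoietic stem cells. The others were Ly6Chi monocytes and Ly6Clo monocytes. Per the study's methods the reporter mice were Rank cre/+;R26.eYFP fl/+, so Cre is made from the Rank locus itself, that is Tnfrsf11a, and a cell that once used this locus stays eYFP+ together with its progeny. The labels give no eYFP status for the monocytes. How the cre allele changes the reads assigned to Tnfrsf11a is not given in the sources used here. Nor is it stated whether replicates came from separate mice, so p-values measure the spread between these samples, which may be technical.

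Osteoclasts are large multinucleate cells that resorb bone, and they form by fusion of cells of the monocyte and macrophage lineage. RANK, the product of Tnfrsf11a, receives the ligand RANKL and, together with the CSF1 receptor and co-receptors such as OSCAR, turns on the transcription factor NFATc1. NFATc1 in turn is known to drive genes for fusion (Dcstamp, Ocstamp, Atp6v0d2), for acid secretion (Tcirg1) and for matrix degradation (Ctsk, Acp5), and the calcitonin receptor Calcr marks the mature cell.

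Library totals ran from 26390927 to 48618187 counts. Sorting markers followed the labels: the summed level of 4 macrophage genes was 12745 to 19461 TPM (the deposited level, corrected for gene length and library size) in macrophages and 256 to 695 TPM in monocytes. Ly6c2 was between 5809 and 6963 TPM in Ly6Chi and between 32.4 and 77.5 TPM in Ly6Clo monocytes. Of the 12 libraries 2 stood apart, with fewer reads on GC-rich transcripts than the other libraries of their group: for Ly6Clo replicate 2 the median log2 ratio over such transcripts was -1.23, and for eYFP+ replicate 1 it was -0.72. Both are called GC-poor below. The GC content of the transcript was 58.6% for Tcirg1, 55.9% for Acp5, 53.7% for Nfatc1 and 53.5% for Ocstamp. It was 48.9% for Ctsk, 47.9% for Tnfrsf11a, 47.4% for Dcstamp and 41.6% for Atp6v0d2. Differences are log2 fold changes with their SE from DESeq2 on counts, called at an adjusted p under 0.05, and the adjusted p of edgeR's quasi-likelihood test is given beside them. In bulk RNA a smaller share of expressing cells and less RNA per cell cannot be told apart.

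**Figure D1:**
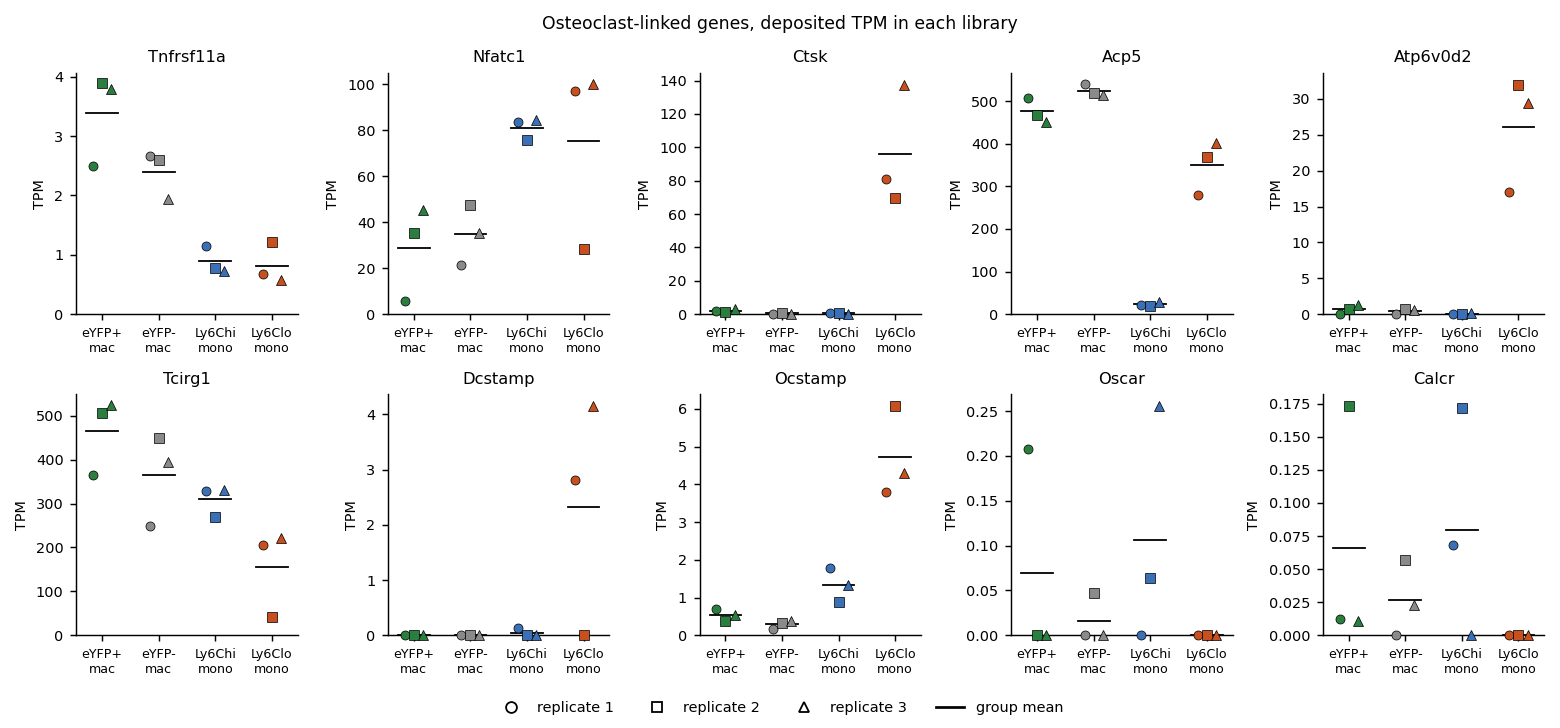
TPM (y axis, linear, starting at 0 and scaled per gene) of the 10 osteoclast-linked genes in each library of the 4 groups; mac is macrophages, mono is monocytes, marker shapes are replicates 1, 2 and 3, and the line is the group mean. Ctsk reached 69.4 to 138 TPM in Ly6Clo monocytes and at most 2.99 TPM elsewhere, while Tnfrsf11a was highest in the macrophages and no higher than 1.21 TPM in any monocyte library.

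Ly6Clo monocytes carried more transcript of 4 osteoclast effector genes than Ly6Chi monocytes, Ctsk, Acp5, Atp6v0d2 and Ocstamp, and no member was called as lower. Tnfrsf11a and Nfatc1, which stand upstream of them in the pathway, were not called. Thus 4 of 9 members tested were called, all higher (Oscar was removed by DESeq2's filter on low counts). Over all genes tested DESeq2 called 8.82% in this comparison, 5.08% as higher in Ly6Clo, and edgeR called 4.32%. The 4 members passed edgeR's test too. In TPM their Ly6Clo and Ly6Chi libraries did not overlap, but the share of all genes that separate in this way was not counted. The libraries of Tcirg1 did not overlap either, in the other direction (a log2 difference of -1.02 ± 0.49, not called).

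The upstream sequences of the 2 members with the highest levels among these 4, Ctsk and Acp5, and of Tnfrsf11a are shown as a view of where transcription of these genes starts. The reference table holds promoters for 6 of the 10 members, and of these 3 are printed. Each is the 250 bases before a RefSeq start site, build GRCm38.p6, which is an older build than the GRCm39 the authors aligned to. They are written 5′ to 3′ along the gene, in lower case, with matches to GGAAA (the core letters of NFAT sites), TGANTCA (AP-1), GAGGAA (PU.1), CACGTG and CATGTG (E-boxes of MITF and TFE factors) on either strand in capitals. The Ctsk window is chr3:95498960-95499209 on the plus strand, the Acp5 window chr9:22135747-22135996 on the minus strand (the first of 3 starts listed) and the Tnfrsf11a window chr1:105780473-105780722 on the plus strand.
Ctsk: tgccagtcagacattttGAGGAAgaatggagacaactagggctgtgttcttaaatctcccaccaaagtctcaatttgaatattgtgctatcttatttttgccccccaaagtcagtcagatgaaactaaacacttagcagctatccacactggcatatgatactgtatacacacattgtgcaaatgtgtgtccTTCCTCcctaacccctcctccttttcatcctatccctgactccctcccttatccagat
Acp5: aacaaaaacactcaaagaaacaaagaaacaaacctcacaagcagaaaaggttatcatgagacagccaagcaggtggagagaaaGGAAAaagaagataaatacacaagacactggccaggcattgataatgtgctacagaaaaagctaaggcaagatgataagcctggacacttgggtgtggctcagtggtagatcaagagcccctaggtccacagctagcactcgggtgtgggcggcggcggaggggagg
Tnfrsf11a: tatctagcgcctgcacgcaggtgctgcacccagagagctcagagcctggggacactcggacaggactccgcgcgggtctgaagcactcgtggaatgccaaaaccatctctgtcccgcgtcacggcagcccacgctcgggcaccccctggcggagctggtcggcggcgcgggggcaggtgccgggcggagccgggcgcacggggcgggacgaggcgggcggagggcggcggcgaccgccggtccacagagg
The Ctsk window held 2 matches to GAGGAA, one on each strand, letters found in 23.3% of 32841 promoter windows of that length. The Acp5 window held 1 match to GGAAA, found in 55.6% of windows. The Tnfrsf11a window held no match to any of the 5 motifs. The AP-1 letters are in 6.75% of windows, CACGTG in 6.02% and CATGTG in 12.3%. A match is only a run of letters, and the absence of one says nothing about the factor.

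Ctsk encodes cathepsin K, the protease that degrades bone collagen. It was 80.8, 69.4 and 138 TPM in Ly6Clo replicates 1, 2 and 3, and 0.61, 0.50 and 0.23 TPM in the Ly6Chi replicates. In macrophages it was 2.01, 1.13 and 2.99 TPM in eYFP+ and 0.35, 0.77 and 0.40 TPM in eYFP- replicates. Every Ly6Clo library lay above every other library, and the GC-poor replicate 2 was the lowest of the 3 but close to replicate 1. Ctsk was higher in Ly6Clo than in Ly6Chi monocytes by 7.73 ± 0.52 on the log2 scale, 212-fold (DESeq2 adjusted p = 8.01e-47, edgeR adjusted p = 3.00e-05). Against the mean of both macrophage groups it was higher by 6.67 ± 0.41 (DESeq2 adjusted p = 9.39e-56, edgeR adjusted p = 6.92e-07). Without Ly6Clo replicate 2 these differences were 7.89 and 6.88.

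Marker genes of other marrow cells were read in the same libraries. Of the 6 stromal and osteoblast markers, whose summed level was 6.88 to 20.7 TPM in Ly6Clo, 2.51 to 31.7 TPM in Ly6Chi monocytes, 11.2 to 16.2 TPM in eYFP+ and 40.5 to 66.4 TPM in eYFP- macrophages, 1 of 5 tested was higher in Ly6Clo than in Ly6Chi monocytes. This was Bglap, which encodes osteocalcin, at 0.099, 1.95 and 1.77 TPM against 0, 0.13 and 0 TPM (a difference of 4.83 ± 1.55, DESeq2 adjusted p = 0.0265, edgeR adjusted p = 0.102). Runx2, an osteoblast transcription factor, was 6.99, 3.35 and 4.98 TPM in Ly6Clo, 1.90, 1.90 and 2.07 TPM in Ly6Chi monocytes and at most 1.20 TPM in macrophages. Its difference from macrophages was 4.13 ± 0.67 (DESeq2 adjusted p = 1.20e-08), and from Ly6Chi monocytes 1.36 ± 0.77 (DESeq2 adjusted p = 0.305). Sp7, another osteoblast factor, was at 0 in the 3 Ly6Clo libraries, Lepr was at most 0.90 TPM, Col1a1 at most 1.80 TPM and Cxcl12 at most 11.9 TPM.

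The 4 macrophage markers were all higher in Ly6Clo than in Ly6Chi monocytes by DESeq2, and Vcam1 and Cd5l by edgeR too, with sums of 464 to 695 TPM and 256 to 304 TPM, against at least 12745 TPM in macrophages. Of 4 dendritic cell markers 2 were higher. Zbtb46 was 9.20, 1.49 and 6.15 TPM in Ly6Clo and at most 0.86 TPM in Ly6Chi monocytes, a difference of 3.01 ± 0.60 (DESeq2 adjusted p = 2.50e-05, edgeR adjusted p = 0.0196). Xcr1 was 1.5, 0 and 0.97 TPM against at most 0.053 TPM, a difference of 5.21 ± 1.25 (DESeq2 adjusted p = 0.00100, edgeR adjusted p = 0.0771). The dendritic cell markers summed to 8.57 to 55.4 TPM in Ly6Clo and 19.3 to 31.2 TPM in Ly6Chi monocytes. Of 4 B cell markers Cd79b was higher, by 1.51 ± 0.43 (DESeq2 adjusted p = 0.00785, edgeR adjusted p = 0.0481), with sums of 53.9 to 140 TPM and 28.3 to 34.7 TPM. Of 3 megakaryocyte markers Pf4 was higher, by 5.53 ± 0.48 (DESeq2 adjusted p = 1.43e-27), with sums of 57.7 to 74.8 TPM and 1.41 to 3.68 TPM. Of 4 T and NK cell markers Ncr1 was higher and Nkg7 lower. The 4 erythroid markers summed to 415 to 1070 TPM in Ly6Clo and 271 to 671 TPM in Ly6Chi monocytes. The 6 neutrophil and precursor markers summed to 4700 to 13303 TPM in Ly6Clo and 13465 to 20562 TPM in Ly6Chi monocytes, and 2 of them, Elane and Mpo, were lower in Ly6Clo. The part of any of these cells in the Ctsk difference, or in those of the other members, was not tested.

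**Figure D2:**
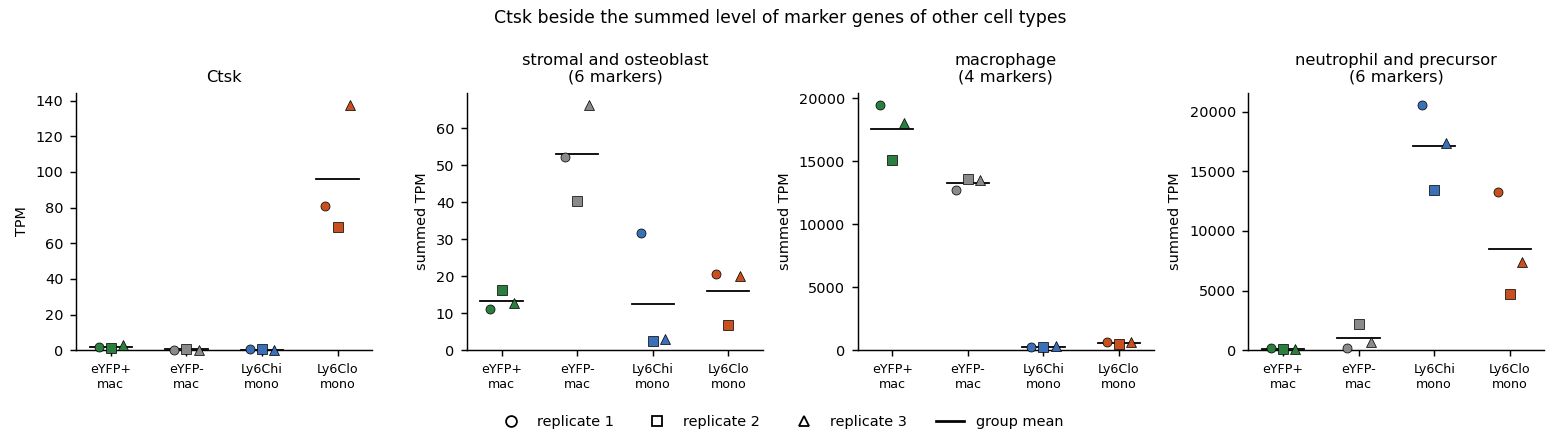
Ctsk (TPM) beside the summed TPM of stromal and osteoblast, macrophage, and neutrophil and precursor markers in each library, on linear axes from 0; marker shapes are replicates and the line is the group mean. Ctsk was 69.4 to 138 TPM in Ly6Clo monocytes, where the stromal sum was 6.88 to 20.7, the macrophage sum 464 to 695 and the neutrophil and precursor sum 4700 to 13303 TPM; the part of these cells in the Ctsk level was not tested.

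Acp5 encodes tartrate-resistant acid phosphatase, the enzyme by which osteoclasts are stained. It separated Ly6Chi monocytes from the other 3 groups. Its level was 279, 369 and 401 TPM in Ly6Clo and 21.3, 19.7 and 27.7 TPM in Ly6Chi replicates. In macrophages it was 508, 468 and 452 TPM (eYFP+) and 540, 519 and 514 TPM (eYFP-). The order of mean levels was eYFP- macrophages, eYFP+ macrophages, Ly6Clo monocytes and Ly6Chi monocytes, and the TPM ranges of neighbours in this order did not overlap. Acp5 was 3.94 ± 0.28 higher on the log2 scale in Ly6Clo than in Ly6Chi monocytes (DESeq2 adjusted p = 6.12e-42, edgeR adjusted p = 2.38e-05), 15.3-fold. It was 4.35 ± 0.24 lower in Ly6Chi monocytes than in macrophages (DESeq2 adjusted p = 1.08e-69, edgeR adjusted p = 4.31e-07). Between Ly6Clo monocytes and macrophages the difference was -0.41 ± 0.24 and was not called (DESeq2 adjusted p = 0.189, edgeR adjusted p = 0.142). With a GC correction the log2 difference was 0.016 (DESeq2 adjusted p = 0.981). Between the macrophage groups it was -0.10 ± 0.28 (DESeq2 adjusted p = 1).

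The d2 subunit of the proton pump, encoded by Atp6v0d2, takes part in fusion of osteoclast precursors. Its transcript was 17.0, 32 and 29.4 TPM in Ly6Clo monocytes and 0, 0 and 0.21 TPM in Ly6Chi monocytes. In macrophages it was 0, 0.77 and 1.22 TPM (eYFP+) and 0, 0.68 and 0.58 TPM (eYFP-). Ly6Clo libraries therefore lay apart from the rest. With 9 counts in a single Ly6Chi library, the fitted difference of 8.58 ± 2.16 between the monocyte groups is wide (DESeq2 adjusted p = 0.00198, edgeR adjusted p = 0.0167). Against macrophages it was 5.82 ± 1.83 (DESeq2 adjusted p = 0.00695, edgeR adjusted p = 0.00204). DESeq2 no longer called the latter without Ly6Clo replicate 2 (adjusted p = 0.0525) or without Ly6Clo replicate 3 (adjusted p = 0.0513).

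Ocstamp and Dcstamp encode related membrane proteins, OC-STAMP and DC-STAMP, both required for osteoclast precursors to fuse. Ocstamp was 3.79, 6.09 and 4.30 TPM in Ly6Clo and 1.79, 0.88 and 1.33 TPM in Ly6Chi monocytes. It was 0.69, 0.37 and 0.55 TPM in eYFP+ and 0.17, 0.32 and 0.38 TPM in eYFP- macrophages. Both monocyte groups lay above both macrophage groups, and Ly6Clo above Ly6Chi, with no overlap. The difference between the monocyte groups was 1.83 ± 0.45 (DESeq2 adjusted p = 0.00133, edgeR adjusted p = 0.0477), and without Ly6Clo replicate 2, the highest library, it was 1.56 (DESeq2 adjusted p = 0.0134). Against macrophages Ocstamp was higher by 3.70 ± 0.40 in Ly6Clo (DESeq2 adjusted p = 4.65e-19, edgeR adjusted p = 2.85e-05) and by 1.86 ± 0.40 in Ly6Chi monocytes (DESeq2 adjusted p = 3.21e-05, edgeR adjusted p = 0.00244).

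Dcstamp had 129, 0 and 170 counts in Ly6Clo replicates 1, 2 and 3, which is 2.82, 0 and 4.15 TPM. It had 5, 0 and 0 counts in Ly6Chi monocytes and no count in the 6 macrophage libraries. Ly6Clo replicate 2 thus stood with the macrophages. This library also had the fewest genes with a count, 16434 against 24769 and 22254 in replicates 1 and 3, and the part of library quality in its count of 0 was not tested. Set against a floor of 3 counts per library, the mean over Ly6Clo libraries was at least 36.1-fold higher than in macrophages (DESeq2 adjusted p = 0.0386). edgeR's count filter removed the gene. The call was lost without Ly6Clo replicate 1 (DESeq2 adjusted p = 0.0652) and without Ly6Clo replicate 3 (adjusted p = 0.0974). Against Ly6Chi monocytes Dcstamp was not called (DESeq2 adjusted p = 0.459).

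Oscar and Calcr, at the surface of the mature osteoclast, had no count in any Ly6Clo library. Oscar, the immunoglobulin-like co-receptor, had 0 to 8 counts per library over the other groups, and Calcr, the calcitonin receptor, had 0 to 13. A count of 0 allows up to 3 counts, or 0.0775 to 0.114 CPM (counts scaled to library size) in the Ly6Clo libraries. No difference in either gene was detectable at this depth: Calcr was not called in any comparison, and Oscar was not tested.

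Tnfrsf11a itself followed another order of group means than Ctsk, Acp5, Atp6v0d2 and Ocstamp. The order from high to low was eYFP+ macrophages, eYFP- macrophages, Ly6Chi monocytes and Ly6Clo monocytes, which was also that of Tcirg1. Tnfrsf11a was 2.50, 3.89 and 3.79 TPM in eYFP+ macrophages and 2.67, 2.59 and 1.93 TPM in eYFP- macrophages. In monocytes it was 1.15, 0.78 and 0.73 TPM (Ly6Chi) and 0.68, 1.21 and 0.57 TPM (Ly6Clo). All 6 macrophage libraries lay above all 6 monocyte libraries. The 2 macrophage groups overlapped, as did the 2 monocyte groups. The 59 to 113 counts per monocyte library put the gene above the floor in each.

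Against macrophages Tnfrsf11a was lower by 1.69 ± 0.34 on the log2 scale in Ly6Clo monocytes (DESeq2 adjusted p = 9.66e-06, edgeR adjusted p = 0.00331). In Ly6Chi monocytes it was lower by 1.57 ± 0.34 (DESeq2 adjusted p = 4.12e-05, edgeR adjusted p = 0.00538). Between Ly6Clo and Ly6Chi monocytes the difference was -0.11 ± 0.40 (DESeq2 adjusted p = 0.919, edgeR adjusted p = 0.846). Without Ly6Clo replicate 2, the highest of the 3, it was -0.56 (DESeq2 adjusted p = 0.440). Between eYFP+ and eYFP- macrophages, which are told apart by past use of this locus, the difference was 0.51 ± 0.39 (DESeq2 adjusted p = 0.895, edgeR adjusted p = 0.944).

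The 5 genes whose levels were most like those of Tnfrsf11a over the 12 libraries were Kcnh4, Mpv17l, Slc30a1, Reps2 and Nfia. They were the nearest among 4562 genes whose mean TPM lay within 4-fold of its own. Likeness was the root mean square difference of centred log2(TPM + 1), which was 0.15 for Kcnh4, 0.16 for Mpv17l, 0.20 for Slc30a1, 0.20 for Reps2 and 0.20 for Nfia. Kcnh4, a potassium channel gene, had mean levels of 1.59 TPM in eYFP+ and 0.83 TPM in eYFP- macrophages, and 0.032 TPM in Ly6Chi monocytes, with 0 in Ly6Clo monocytes. Nfia, a transcription factor gene, had means of 2.81, 2.1, 0.60 and 0.58 TPM in the same order.

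The ligand side of the pathway was near the limit of detection. Tnfsf11, which encodes RANKL, had 0 to 42 counts per macrophage library and 1 count in all monocyte libraries together. Tnfrsf11b, which encodes the decoy receptor osteoprotegerin, had counts in 2 macrophage libraries, 5 in eYFP+ replicate 3 and 30 in eYFP- replicate 2. Lgr4, an alternative receptor of RANKL, stayed at or below 0.34 TPM throughout. DESeq2 called Tnfsf11 as lower than in macrophages for Ly6Clo (adjusted p = 0.0427) and Ly6Chi monocytes (adjusted p = 0.0166). edgeR called neither, with adjusted p of 0.101 and 0.0654.

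Nfatc1 was higher in monocytes than in macrophages. It was 83.6, 75.5 and 84.1 TPM in Ly6Chi and 96.8, 28.5 and 99.97 TPM in Ly6Clo monocytes. In macrophages it was 5.79, 35.3 and 45.1 TPM (eYFP+) and 21.6, 47.6 and 35.1 TPM (eYFP-). The lowest library of Ly6Clo and of eYFP+ was in each case the GC-poor one, and the ranges of Ly6Clo monocytes and macrophages overlapped through Ly6Clo replicate 2. In Ly6Chi monocytes Nfatc1 was higher than in macrophages by 1.51 ± 0.53 (DESeq2 adjusted p = 0.0168, edgeR adjusted p = 0.0345). In Ly6Clo monocytes it was higher by 1.37 ± 0.53 (DESeq2 adjusted p = 0.0327, edgeR adjusted p = 0.0556). DESeq2's call in Ly6Chi monocytes was lost without any one of their 3 libraries (adjusted p of 0.0572 to 0.0747). In Ly6Clo monocytes it was lost without Ly6Clo replicate 1 (adjusted p = 0.125) or 3 (adjusted p = 0.172) and without eYFP- replicate 1 (adjusted p = 0.0752) or 3 (adjusted p = 0.0588). With both GC-poor libraries left out these differences were 1.32 and 1.56 (DESeq2 adjusted p = 1.71e-09 and 6.33e-10). Ly6Clo and Ly6Chi monocytes differed by -0.14 ± 0.61 (DESeq2 adjusted p = 0.940), and by 0.24 ± 0.26 without both GC-poor libraries (DESeq2 adjusted p = 0.675).

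**Figure D3:**
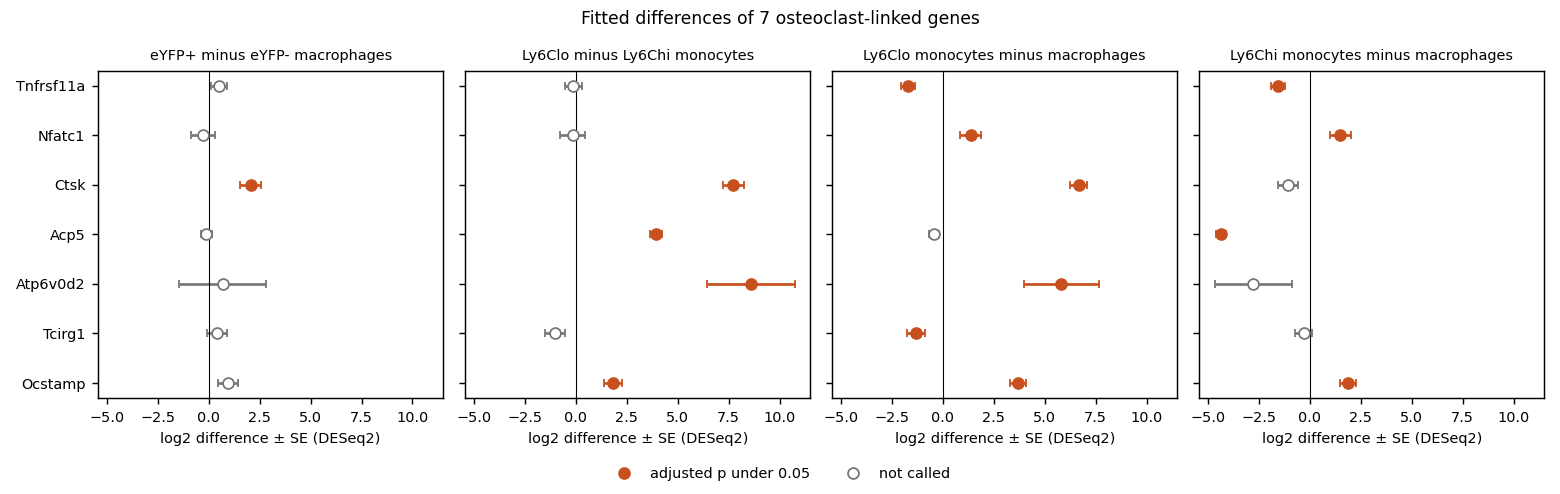
Log2 differences with SE (x axis, DESeq2 on counts) of 7 members in the 4 comparisons; Dcstamp, Oscar and Calcr are left out because each had no count in any library of at least 1 group. Filled points passed an adjusted p of 0.05: Ctsk, Acp5, Atp6v0d2 and Ocstamp between the monocyte groups, and Ctsk alone between the macrophage groups.

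Set against macrophages, 5 of 9 members tested were higher in Ly6Clo monocytes (Ctsk, Ocstamp, Atp6v0d2, Nfatc1 and Dcstamp) and 2 were lower (Tnfrsf11a and Tcirg1). Over all genes DESeq2 called 30.8%, 13.5% as higher and 17.3% as lower, and edgeR called 28.1%. Of the 7 members called, 5 passed edgeR's test: Ctsk, Ocstamp and Atp6v0d2 among the higher, and both of the lower. For Ly6Chi monocytes against macrophages 2 members were higher (Nfatc1 and Ocstamp) and 2 were lower (Tnfrsf11a and Acp5), each also by edgeR. There DESeq2 called 30% of all genes, 13.0% as higher and 17.0% as lower, and edgeR called 29%. Ctsk had a difference of -1.06 ± 0.48 in that comparison (DESeq2 adjusted p = 0.0809, and 0.0360 without eYFP+ replicate 2). Both comparisons use the same 6 macrophage libraries.

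Between eYFP+ and eYFP- macrophages 1 of 9 members was called, with Ctsk higher in eYFP+ cells. DESeq2 called 2.07% of all genes there, 0.156% as higher in eYFP+, and edgeR called 0.334%. The 3 eYFP+ libraries had 64, 34 and 111 counts of Ctsk and the eYFP- libraries 12, 27 and 14, with no overlap in TPM. The difference was 2.07 ± 0.51 (DESeq2 adjusted p = 0.00511) and did not pass edgeR's test (adjusted p = 0.112). DESeq2's call was lost without eYFP+ replicate 3 (adjusted p = 0.0975), without eYFP- replicate 1 (adjusted p = 0.0628) and without eYFP- replicate 3 (adjusted p = 0.0738). At 2.04 ± 0.93 TPM (SD, n = 3), Ctsk in eYFP+ macrophages was far below its 95.9 ± 36.5 TPM (n = 3) in Ly6Clo monocytes. Among the cell type markers, DESeq2 called Ccr2, Mpo, Camp, Klf1, Flt3, Xcr1, Nkg7 and Itga2b as lower in eYFP+ than in eYFP- macrophages. No marker was called as higher, and of those lower only Nkg7 passed edgeR's test (adjusted p = 0.00201). The part of other cells in the Ctsk difference between the macrophage groups was not tested. The other 8 members had DESeq2 adjusted p of at least 0.559. Dcstamp is among these 8, but it had no count in any macrophage library and so could not be called.

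The proton pump that acidifies the resorption space is built from subunits with several forms, of which a3 (Tcirg1) and d2 (Atp6v0d2) are those used by osteoclasts. Tcirg1 was 364, 506 and 525 TPM in eYFP+ and 250, 450 and 395 TPM in eYFP- macrophages, and 329, 269 and 331 TPM in Ly6Chi monocytes. In Ly6Clo monocytes it was 206, 41.3 and 221 TPM. The Ly6Clo libraries lay below all others, and the GC-poor replicate 2 lay far below the rest of its group. The difference between Ly6Clo monocytes and macrophages was -1.31 ± 0.43 (DESeq2 adjusted p = 0.00943, edgeR adjusted p = 0.0404). Without Ly6Clo replicate 2 it was -0.82 (DESeq2 adjusted p = 0.00149). Against Ly6Chi monocytes it was -1.02 ± 0.49 (DESeq2 adjusted p = 0.203), and -0.58 without that library (adjusted p = 0.149).

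Among the other a and d subunits, Atp6v0d1, the d form found in most cells, was 74.1 to 88.1 TPM in Ly6Clo and 83.6 to 114 TPM in Ly6Chi monocytes. In macrophages it was 87.1 to 136 TPM, and it was called in none of the comparisons. In Ly6Clo monocytes d1 thus remained the more abundant d subunit, with d2 at 26.1 ± 8.00 TPM (SD, n = 3) against 79.3 ± 7.67 TPM (n = 3). Atp6v0a1 was 32.8 to 97.7 TPM in macrophages and 5.74 to 14.8 TPM in monocytes, lower by 2.66 ± 0.34 in Ly6Clo (DESeq2 adjusted p = 1.21e-13, edgeR adjusted p = 0.000187). In Ly6Chi monocytes Atp6v0a1 was lower than in macrophages by 2.09 ± 0.34 (DESeq2 adjusted p = 9.36e-09, edgeR adjusted p = 0.000780). Atp6v0a2 was not called in any comparison, and Atp6v0a4, a kidney form, had 0 to 3 counts per library. Of the 18 other pump genes listed, 16 were tested. DESeq2 called 4 of them in each monocyte group against macrophages, all lower, and edgeR called 4 lower in Ly6Clo monocytes and 3 lower and 1 higher in Ly6Chi monocytes. For Ly6Chi monocytes the DESeq2 count became 8 without Ly6Clo replicate 2, and ran from 3 to 8 with each library left out. Between the monocyte groups, where DESeq2 called 8.82% of all genes, it called only Atp6v1a of the 16, lower in Ly6Clo by 0.73 ± 0.23 (adjusted p = 0.0253). Atp6v1a did not pass edgeR's test (adjusted p = 0.0541), and DESeq2's call was lost for 7 of the 12 libraries left out (adjusted p of 0.0534 to 0.130).

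**Figure D4:**
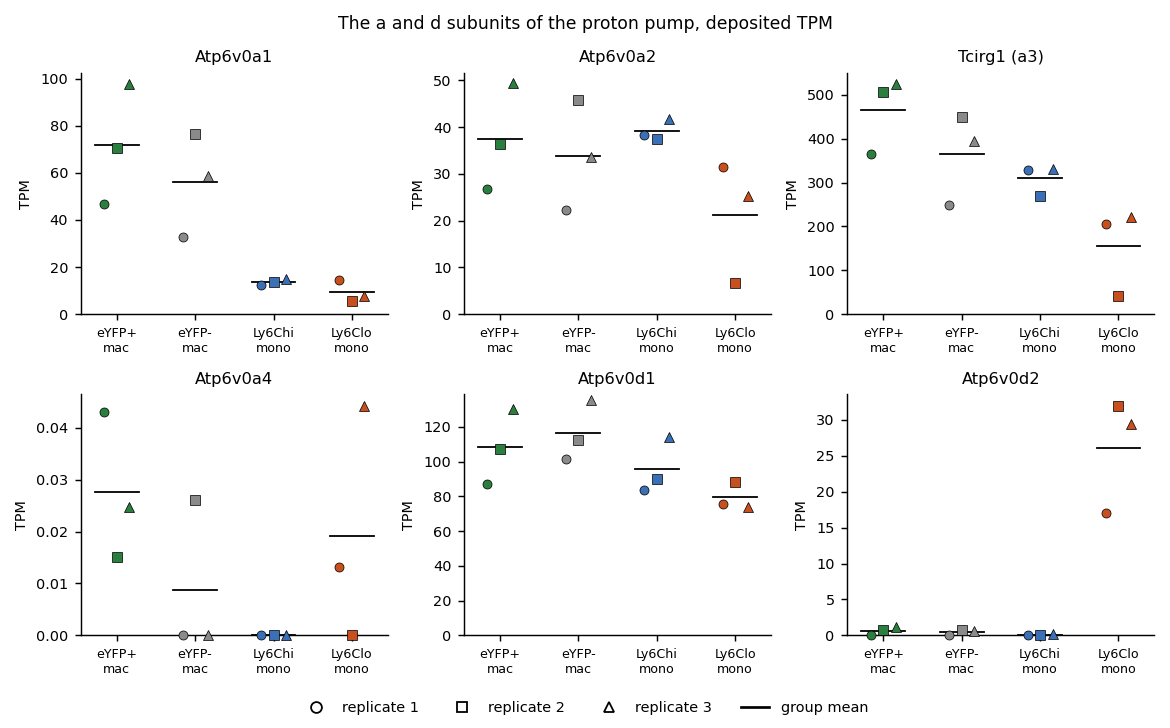
TPM (linear axes from 0, scaled per gene) of the a and d subunits of the proton pump in each library; marker shapes are replicates and the line is the group mean. Atp6v0d2 reached 17.0 to 32 TPM in Ly6Clo monocytes and at most 1.22 TPM elsewhere, while Atp6v0d1 was between 74.1 and 136 TPM in every library.

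The rest of the pathway was read from 9 lists that hold 85 genes, of which 82 were tested. Between Ly6Clo and Ly6Chi monocytes 10 of the 82 were higher and 2 lower (8.82% of all genes were called, 5.08% as higher), and 7 of these 12 also passed edgeR's test. The median log2 difference over the 82 was -0.13, and over all genes tested it was -0.01.

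In the calcineurin and NFAT list, 2 of 6 genes were higher in Ly6Clo than in Ly6Chi monocytes. Rcan1, a calcineurin regulator that is itself a target of NFAT, was 97.8, 82.1 and 158 TPM in Ly6Clo and 7.87, 5.25 and 7.78 TPM in Ly6Chi monocytes. The groups did not overlap, and the difference was 4.01 ± 0.36 (DESeq2 adjusted p = 1.16e-25, edgeR adjusted p = 0.000112). Nfatc3, another member of the NFAT family, was 8.81, 8.55 and 8.32 TPM against 3.25, 2.96 and 2.27 TPM, a difference of 1.60 ± 0.28 (DESeq2 adjusted p = 1.67e-06, edgeR adjusted p = 0.00715). Against macrophages both were higher in Ly6Clo monocytes as well, by 3.54 ± 0.31 and 1.70 ± 0.25 (DESeq2 adjusted p of 5.58e-28 and 8.45e-11).

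Of 7 cell fusion genes, 3 were higher in Ly6Clo than in Ly6Chi monocytes. Cd9, a tetraspanin, was 223, 264 and 230 TPM against 32, 24.0 and 21.5 TPM, a difference of 3.21 ± 0.34 (DESeq2 adjusted p = 6.45e-19, edgeR adjusted p = 0.000194). Cd81, another tetraspanin, was 205, 715 and 155 TPM against 27.9, 17.7 and 21.9 TPM, with the GC-poor replicate 2 the highest of its group. Its difference was 4.03 ± 0.57, and 2.95 without Ly6Clo replicate 2 (DESeq2 adjusted p = 1.70e-10 and 6.17e-13). In macrophages Cd81 was higher still, at 2186 to 3787 TPM. Cd47 had a difference of 0.60 ± 0.21 that passed DESeq2 (adjusted p = 0.0439) and not edgeR (adjusted p = 0.117), and leaving out 1 library ended the call for 10 of the 12 libraries (adjusted p of 0.0598 to 0.195).

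Of 18 genes of RANK signalling, 3 were higher and 1 was lower in Ly6Clo than in Ly6Chi monocytes. Src, the kinase needed for the ruffled border of osteoclasts, was 0.94, 1.51 and 1.74 TPM in Ly6Clo and at most 0.060 TPM in Ly6Chi monocytes. In macrophages it was 1.60 to 4.61 TPM. The 1 to 4 counts per Ly6Chi library leave its difference of 5.61 ± 0.73 uncertain in size (DESeq2 adjusted p = 4.31e-12, edgeR adjusted p = 0.000462). Nfkb1 was higher by 1.03 ± 0.27 (DESeq2 adjusted p = 0.00407, edgeR adjusted p = 0.0339). Tab2 was higher by 0.93 ± 0.31 by DESeq2 (adjusted p = 0.0377) and was not called by edgeR (adjusted p = 0.0882), and its call was lost for 9 of the 12 libraries left out (adjusted p of 0.0530 to 0.159). Traf5 was lower by 0.83 ± 0.21 (DESeq2 adjusted p = 0.00210, edgeR adjusted p = 0.0300).

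Of 9 resorption genes, Mmp9 and Mmp14 were higher in Ly6Clo than in Ly6Chi monocytes. Mmp9, a matrix protease of osteoclasts and of neutrophils, was 131, 14.3 and 80.6 TPM against 0.50, 0.22 and 2.95 TPM, so that the groups did not overlap but the Ly6Clo libraries spread widely. Its difference of 5.90 ± 1.89 passed DESeq2 (adjusted p = 0.0257) and not edgeR (adjusted p = 0.0876). DESeq2's call was lost without Ly6Chi replicate 1 (adjusted p = 0.133) or replicate 2 (adjusted p = 0.130), and no adjusted p was given without any one of the Ly6Clo libraries. The 6 neutrophil and precursor markers, whose sums are given above, had differences of -8.71 (Elane), -5.68 (Mpo), -1.23 (Camp), -1.13 (S100a9), -0.93 (S100a8) and 0.79 (Ltf), and the part of neutrophil RNA in the Mmp9 difference was not tested. Mmp14 had a difference of 2.74 ± 0.66 (DESeq2 adjusted p = 0.00103, edgeR adjusted p = 0.0501). Itgb3, a subunit of the osteoclast vitronectin receptor, Clcn7 and Ostm1, which serve chloride transport, and Car2, carbonic anhydrase, were not called between the monocyte groups. The lists of CSF1 receptor and ITAM signalling (9 genes), osteoclast transcription factors (10) and repressors of osteoclast formation (5) held no call by DESeq2 or edgeR in this comparison. At an unadjusted DESeq2 p under 0.05 the first held 2 higher and 1 lower, the second 1 higher and 1 lower and the third 1 lower.

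Against macrophages, 18 of the 82 genes were higher and 16 lower in Ly6Clo monocytes, and 18 were higher and 15 lower in Ly6Chi monocytes. Over all genes 13.5% were higher and 17.3% lower in the first and 13.0% and 17.0% in the second comparison. Of these genes called by DESeq2, edgeR also called 17 and 13 for Ly6Clo and 18 and 12 for Ly6Chi monocytes. Over all the lists edgeR called 19 genes as higher in Ly6Chi monocytes. The median over the 82 genes was 0.07 in the first and 0.01 in the second comparison, against -0.07 and -0.06 over all genes tested. Among the repressors, Id2 was lower in both monocyte groups. It was 947 to 1169 TPM in macrophages and 139 to 239 TPM in monocytes. In Ly6Clo monocytes Id2 was lower by 2.47 ± 0.22 (DESeq2 adjusted p = 1.75e-28, edgeR adjusted p = 8.54e-06). Bcl6, a factor known to repress osteoclast genes, was by contrast higher in Ly6Clo monocytes by 3.46 ± 0.67 (DESeq2 adjusted p = 3.26e-06, edgeR adjusted p = 0.00263). In Ly6Chi monocytes Bcl6 was higher by 2.40 ± 0.68 (DESeq2 adjusted p = 0.00203, edgeR adjusted p = 0.0164).

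Of 10 osteoclast transcription factors 3 were higher and 1 was lower in Ly6Clo monocytes than in macrophages, and 6 were not called, where 30.8% of all genes were called. Fosl2, an AP-1 factor, was higher in Ly6Clo monocytes than in macrophages by 2.69 ± 0.27 and Spi1, which encodes PU.1, by 1.10 ± 0.34 (DESeq2 adjusted p of 2.21e-22 and 0.00680). Tfeb, a factor of lysosomal genes, was higher by 1.11 ± 0.44 by DESeq2 (adjusted p = 0.0398) and not by edgeR (adjusted p = 0.0555), and DESeq2's call was lost for 9 of the 12 libraries left out (adjusted p of 0.0535 to 0.208). Mitf was lower by 1.59 ± 0.39 (DESeq2 adjusted p = 0.000267, edgeR adjusted p = 0.00813). Of 9 genes of CSF1 receptor and ITAM signalling 3 were higher, 1 was lower and 5 were not called. Sirpb1a was higher by 5.53 ± 0.37 and Tec, a kinase downstream of ITAM receptors, by 2.62 ± 0.30 (DESeq2 adjusted p of 3.41e-48 and 2.16e-16). Trem2, an ITAM-coupled receptor, was lower by 1.56 ± 0.27 (DESeq2 adjusted p = 1.23e-07). Sirpb1a belongs to a family of near-identical genes, so the share of reads assigned to it is uncertain.

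Between the macrophage groups DESeq2 called 2 of the 82 genes, Car2 and Sirpb1a, both lower in eYFP+ cells, where 2.07% of all genes were called, a share near that of the list. Another 4 genes, higher in eYFP+ cells, had an unadjusted DESeq2 p under 0.05, and edgeR called 0 of the 82. Car2 was 494, 149 and 216 TPM in eYFP+ and 1536, 631 and 1055 TPM in eYFP- macrophages, a difference of -1.86 ± 0.56 (DESeq2 adjusted p = 0.0456). Sirpb1a had a difference of -1.47 ± 0.43 (DESeq2 adjusted p = 0.0346). Neither passed edgeR's test, with adjusted p of 0.2498 and 0.167. Without 1 library DESeq2's call was lost for 7 of the 12 libraries for each gene (adjusted p of 0.0632 to 0.493 for Car2 and 0.0615 to 0.401 for Sirpb1a). Car2 is abundant in red cell precursors, and the summed level of 4 erythroid markers was 6661 to 11670 TPM in eYFP+ and 17144 to 28052 TPM in eYFP- macrophages. The part of these cells in the difference was not tested.

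**Figure D5:**
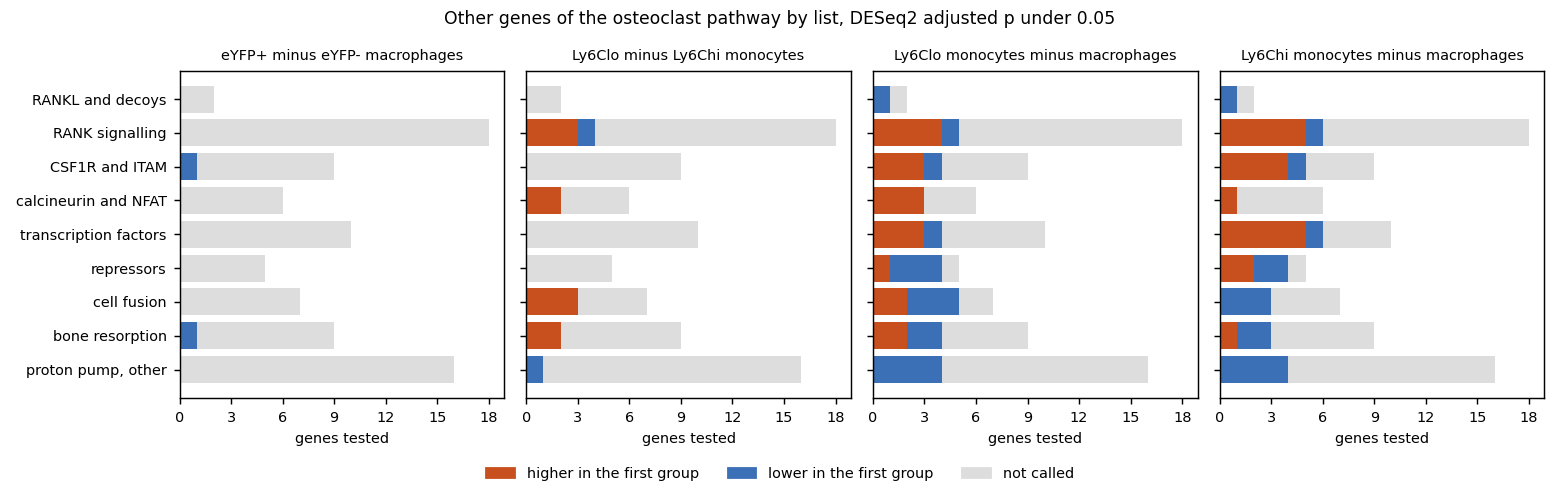
Number of genes tested (x axis) in 9 lists of other osteoclast pathway genes that were higher, lower or not called in the first group of each comparison (DESeq2 adjusted p under 0.05). Between Ly6Clo and Ly6Chi monocytes the calls fell in the lists of RANK signalling, calcineurin and NFAT, cell fusion, bone resorption and the proton pump, 12 of 82 genes in all.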

How the data were processed

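Counts were deposited by the authors as whole numbers of read pairs per gene: reads were demultiplexed with bcl2fastq 2.20.0.422, trimmed, error-corrected, freed of ribosomal RNA, aligned with segemehl to GRCm39 (Ensembl annotation) and counted with featureCounts where a pair was unambiguous. TPM values were computed by the authors from these counts and gene length. The strand setting is not given in the sources used here. cDNA was amplified without molecular identifiers, so floors cover counting error only. Depth was 26390927 to 48618187 counts per library.

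Here counts were fitted once over the 12 libraries with DESeq2 1.42.0 (R 4.3.3; group only, Wald contrasts, Benjamini-Hochberg adjustment over all genes tested, adjusted p under 0.05, independent filtering). "Against macrophages" is the contrast with the mean of both macrophage groups. edgeR 4.0.16 (quasi-likelihood, TMM) and limma 3.58.1 on log2(TPM + 1) were alternatives. Scripts were tested on simulated counts. A table of variance-stabilised values was not used. Symbols were matched for 91.35% of identifiers through GENCODE M21. Promoters came from RefSeq (GRCm38.p6).

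The members, gene lists and markers were chosen with earlier results of these data known. Named by rule were the 10 members, the RANKL list and the a and d pump subunits. Of each other list the rule took up to 4 called genes of lowest adjusted p per comparison with a mean of at least 50 normalized counts, and not all of these are given. Car2, Itgb3, Clcn7 and Ostm1, uncalled between the monocyte groups, are named for that comparison outside the rule, chosen after their values were seen.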

Additional observations from a re-analysis of the deposited data

How the results depend on the processing

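The call between the macrophage groups was the least steady: the 1 member called became 0 with edgeR's quasi-likelihood test, with edgeR and the replicate block, in a fit of only the groups compared, and with limma on log2(TPM + 1), on log2(TPM + 0.1) and on log2(TPM + 1) of genes with a mean TPM of at least 1. Leaving out each library in turn gave 0 to 1. For Ly6Clo monocytes against macrophages the 7 members became 4 with edgeR and the replicate block, and 4 to 7 with each library left out, the 4 being without Ly6Clo replicate 3. For Ly6Chi monocytes against macrophages leaving out a library gave 3 to 5. Between the monocyte groups the count was 4 each time a library was left out. Libraries of the same replicate number did not all deviate together (correlations of 0.392, 0.212 and 0.0710 between the macrophage groups and 0.284, 0.0680 and -0.0256 between the monocyte groups), so the number was not taken as a pairing. With the replicate block DESeq2 called 4 members between the monocyte groups, 6 and 4 for Ly6Clo and Ly6Chi monocytes against macrophages and 1 between the macrophage groups, and the Ctsk difference between the monocyte groups was 7.68. Each called difference of a member was set against each alternative. Of these pairs, 393 kept direction and call, 35 kept direction and lost the call, and none reversed. The pairs are not independent, since alternatives that leave out 1 library share most of their data. Over the 82 other pathway genes the calls ran from 8 to 15 between the monocyte groups, from 31 to 40 and from 23 to 42 for Ly6Clo and Ly6Chi monocytes against macrophages, and from 0 to 4 between the macrophage groups, with each library left out.

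Ocstamp between the monocyte groups lost its call under edgeR with the replicate block (adjusted p = 0.104) and limma on log2(TPM + 0.1) (adjusted p = 0.0819). Nfatc1 in Ly6Clo monocytes against macrophages lost it in a fit of only the groups compared (adjusted p = 0.0647), and without independent filtering (adjusted p = 0.0635). Uncalled differences that reversed were these. Acp5 between the macrophage groups was 0.079 with the replicate block and GC correction and 0.084 with the GC correction alone, and Acp5 in Ly6Clo monocytes against macrophages was 0.016 with the GC correction. Nfatc1 without both GC-poor libraries, an alternative chosen after seeing the data, was 0.19 between the macrophage groups and 0.24 between the monocyte groups; with each library left out these ran from -0.71 to 0.20 and from -0.42 to 0.24. Between the macrophage groups Atp6v0d2 ran from -0.063 to 1.27 and Atp6v0d1 from -0.18 to 0.044, with 0.0016 for Atp6v0d1 under the replicate block and GC correction. Tnfrsf11a between the monocyte groups ran from -0.56 to 0.12. The causes were not tested. Genes with fewer than 20 normalized counts on average (Oscar, Calcr, the RANKL list) were too shallow for fold changes to be compared over alternatives.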
